A study of Mus musculus with 6 samples.

Results

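Growth-associated and cytoskeletal genes of immature olfactory neurons were measured in the olfactory epithelium, the sheet of the nose that holds the odour-sensing neurons. The mice were adults of the NMRI strain, either wild type (WT) or without the ion transporter NKCC1 (NKCC1-/-, here KO). The 10 genes were chosen by name: Gap43, Gng8, Crmp1, Dpysl3, Dpysl5, Stmn1, Stmn2, Stmn4, Tubb3 and Dcx. All 10 were found among the 21881 gene symbols of the expression table, each passed the filter of a mean of 0.5 FPKM (sequenced fragments per kilobase of transcript, relative to all mapped fragments of the library), and 15067 genes passed it in all. Each genotype had 3 RNA libraries, each from pooled animals. Epithelia of 3 mice went into each male and each female pool, and 2 epithelia of either sex into each mixed pool. The labels do not name the mutant allele or say whether an animal was in more than 1 pool. The p-values therefore measure the spread between pools. The series title presents NKCC1 as a modulator of neurogenesis in olfactory neurons.

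The olfactory epithelium makes new sensory neurons from basal progenitors throughout life. A newly formed neuron first extends an axon toward the olfactory bulb and then, as it matures, takes up the odour transduction proteins and the marker protein Omp. During the axon-growing stage the neuron carries proteins that act at the growth cone, the moving tip of the axon, and proteins that control the assembly of microtubules. Gap43 is the standard marker of this stage, and Omp that of mature olfactory neurons. The same genes are used by other growing neurons, and Stmn1 also by dividing cells.

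The targeted gene Slc12a2, which encodes NKCC1, was at 83.3, 40.2 and 35.99 FPKM in the mixed, male and female WT pools and at 28.04, 16.1 and 18.01 in the KO ones. Its change of -1.26 ± 0.32 (SE) on the log2(FPKM + 1) scale did not pass (limma, adjusted p = 0.11). Omp was at 1800 to 2977 FPKM in the WT and 1209 to 2012 FPKM in the KO libraries, so the defining marker of the labelled tissue was abundant throughout. Depth was estimated from low values at 3530000 to 3950000 fragments in the mixed pools and 11190000 to 14450000 in the others. The 10 most abundant genes of all held 45.7% of the summed FPKM in the WT female library and 15.5 to 34.4% in the other libraries. Median-of-ratios scaling factors, which set the typical gene level of the libraries equal, were 1.21, 1.06 and 0.76 for the mixed, male and female WT libraries and 1.004, 0.89 and 1.15 for the KO ones. Values are given as deposited, and scaled values are named as such.

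None of the 10 growth genes passed the test of KO against WT at an adjusted p of 0.05 (limma, Benjamini-Hochberg over 15067 genes), where 126 of all genes tested, or 0.836%, passed. At an unadjusted p under 0.05 there was 1 member, Stmn4, against 8.88% of all genes. Of the 10, 5 had a positive and 5 a negative change, with a median of 0.0070 on the log2 scale against 0.013 for all genes tested. The libraries of the genotypes did not overlap for Stmn4, and overlapped for the other 9, while 12.7% of all genes did not overlap. After scaling 1 of the 10 passed, Stmn4, against 1.77% of all genes. The scaled libraries of 3 members, Stmn4, Stmn2 and Gng8, did not overlap, against 22.9% of all genes. In bulk tissue, fewer cells of a type and less RNA per cell cannot be told apart.

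**Figure D1:**
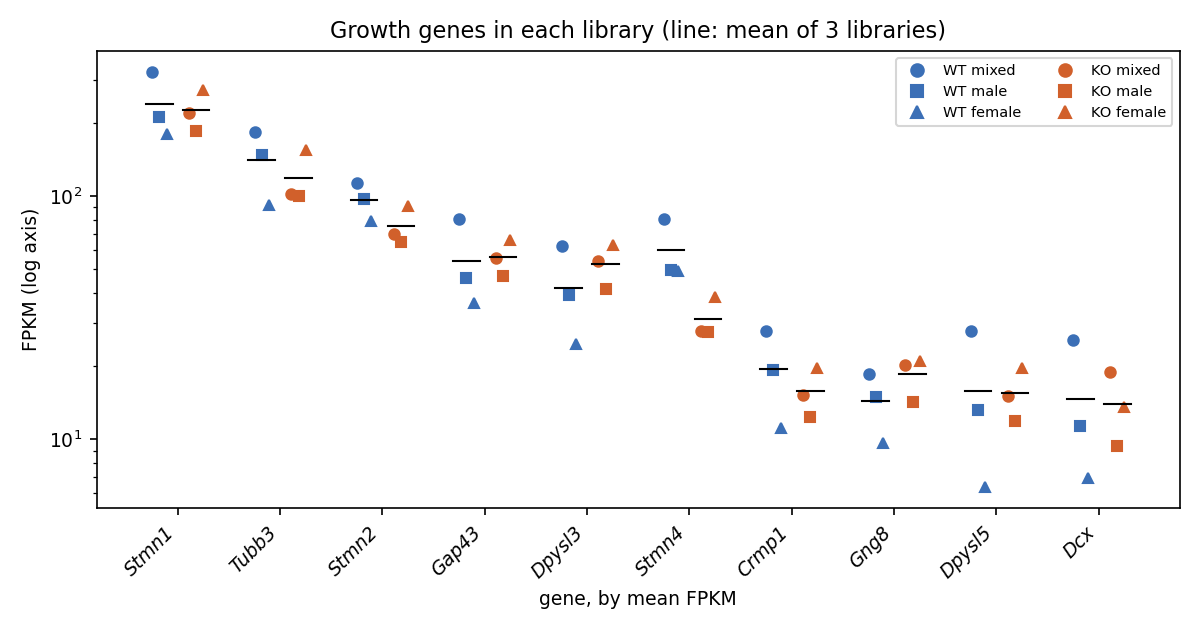
FPKM of the 10 growth genes in each library on a log axis, with blue for WT, orange for KO, a symbol for the kind of pool and a line at the mean of 3 libraries. Stmn4 is the gene whose KO libraries, at 27.6 to 38.5 FPKM, all lie below its WT libraries, at 49.2 to 80.5 FPKM.

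Gap43, a membrane-bound protein of the growth cone, was at 80.6, 45.9 and 36.3 FPKM in the mixed, male and female WT pools and at 55.5, 47.1 and 65.7 FPKM in the KO ones. The WT mixed pool was the highest and the WT female pool the lowest of the 6, and the KO libraries lay between them. The mean of WT was 54.3 ± 23.3 and that of KO 56.1 ± 9.31 (SD over 3 libraries). The log2 change of 0.12 ± 0.28 (SE) had a 95% interval of -0.50 to 0.73.

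Gng8, the G protein gamma subunit of immature olfactory neurons, was less abundant, at 18.5, 14.997 and 9.66 FPKM in the mixed, male and female WT pools and 20.3, 14.3 and 20.95 FPKM in the KO ones. The KO mixed and female pools were above each WT pool, and the KO male pool was within the WT range. The change was 0.37 ± 0.28 (SE), with an interval of -0.23 to 0.96 and an adjusted p of 0.92 in limma. After scaling the WT libraries were at 12.7 to 15.3 and the KO libraries at 15.98 to 20.2, which no longer overlapped, and the adjusted p was 0.27. Scaled KO libraries lay above scaled WT libraries without overlap for 11.2% of all genes.

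Crmp1, Dpysl3 and Dpysl5 belong to the collapsin response mediator proteins, cytosolic proteins that relay repulsive guidance signals to the cytoskeleton and bind tubulin. Dpysl3 was the most abundant, at 62.4, 39.2 and 24.6 FPKM in the mixed, male and female WT pools and 53.8, 41.4 and 63.01 FPKM in the KO ones. Its groups overlapped through the WT mixed pool, and the change of 0.40 ± 0.31 had an interval of -0.27 to 1.06. Crmp1 was at 27.9, 19.3 and 11.2 FPKM in WT and at 15.2, 12.4 and 19.7 FPKM in KO, in the same order of pools. The WT libraries of Crmp1 spanned all KO libraries, and its change was -0.22 ± 0.31. Dpysl5 was at 27.8, 13.2 and 6.36 FPKM in WT, a 4.38-fold range, the widest among the 10 genes. In KO it was at 15.1, 11.9 and 19.6 FPKM, inside the WT range, with a change of 0.17 ± 0.40. None of the 3 had an interval that excluded 0. Without the WT mixed library the changes were 0.069 for Crmp1, 0.72 for Dpysl3 and 0.67 for Dpysl5, and after scaling Crmp1 was at -0.087 without it. Dpysl5 was at -0.32 without the WT female library.

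Stathmins bind free tubulin dimers and promote the shrinking of microtubules. Stmn1, the form also found in dividing cells, was the most abundant of the 10 genes, at 324.5, 211 and 180.1 FPKM in the mixed, male and female WT pools and 219, 185 and 272 FPKM in the KO ones. Its KO libraries lay within the WT range, with a change of -0.054 ± 0.28 (interval -0.65 to 0.54). Stmn2, a membrane-anchored stathmin of growing axons, was at 113, 97.5 and 78.9 FPKM in WT and 70.1, 64.6 and 90.7 FPKM in KO. The KO female pool overlapped the WT range, and the change of -0.36 ± 0.23 had an adjusted p of 0.84 in limma. After scaling Stmn2 was at 91.7 to 103.5 in WT and 69.8 to 78.6 in KO, without overlap, where 11.7% of all genes were lower without overlap. Its scaled change of -0.38 ± 0.13 had an adjusted p of 0.20.

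Stmn4, a neuronal stathmin, was the member that differed most between the genotypes. It was at 80.5, 49.7 and 49.2 FPKM in the mixed, male and female WT pools and at 27.9, 27.6 and 38.5 FPKM in the KO ones. Every KO library lay below every WT library, as it did for 5.24% of all genes tested. The WT mean was 59.8 ± 17.9 FPKM and the KO mean 31.4 ± 6.21 FPKM (SD over 3 libraries), and the KO mean was 52.4% of the WT mean. The log2 change of -0.89 ± 0.25 (SE; interval -1.44 to -0.34) did not pass in limma (unadjusted p = 0.0040, adjusted p = 0.17). After scaling the libraries were at 66.6, 46.7 and 64.5 in WT and at 27.8, 30.9 and 33.4 in KO. The scaled change of -0.91 ± 0.17 passed, with an adjusted p of 0.043, where 1.23% of all genes passed as lower. With any of the 6 libraries left out of the scaled values it did not pass, at adjusted p from 0.058 to 0.147 and changes from -1.07 to -0.82. With the values as deposited, it passed without the WT female library (-1.01, adjusted p = 0.029 in limma) but with none of the other 5 left out. Without the WT female library 542 of all genes passed, 453 of them lower, and the median change of all genes was -0.14.

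Stathmins were also compared within a library. The level of Stmn4 relative to Stmn1 was 0.248, 0.236 and 0.273 in the mixed, male and female WT pools and 0.128, 0.149 and 0.141 in the KO ones. For Stmn2 relative to Stmn1 it was 0.348, 0.463 and 0.438 in WT and 0.321, 0.349 and 0.333 in KO, where the lowest WT value lay just below the highest KO value. These ratios were formed after the values were seen and were not tested. Stmn3, another neuronal stathmin and no member of the set, was at 160.9, 149.9 and 135.1 FPKM in WT and at 82.2, 86.1 and 129.4 FPKM in KO. Its change was -0.61 ± 0.24, with an adjusted p of 0.41 in limma.

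Tubb3, the neuron-specific beta-tubulin of class III, was at 183.01, 147.9 and 92.1 FPKM in the mixed, male and female WT pools and at 101, 99.7 and 155 FPKM in the KO ones. The WT libraries spanned the KO libraries, and the change was -0.22 ± 0.29 (interval -0.84 to 0.40). Dcx, or doublecortin, a microtubule-binding protein of migrating and growing young neurons, had the lowest mean, at 25.7, 11.4 and 6.93 FPKM in WT and 18.8, 9.40 and 13.6 FPKM in KO. Both mixed pools were the highest of their genotype for Dcx, and the change was 0.068 ± 0.39 (interval -0.78 to 0.91).

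**Figure D2:**
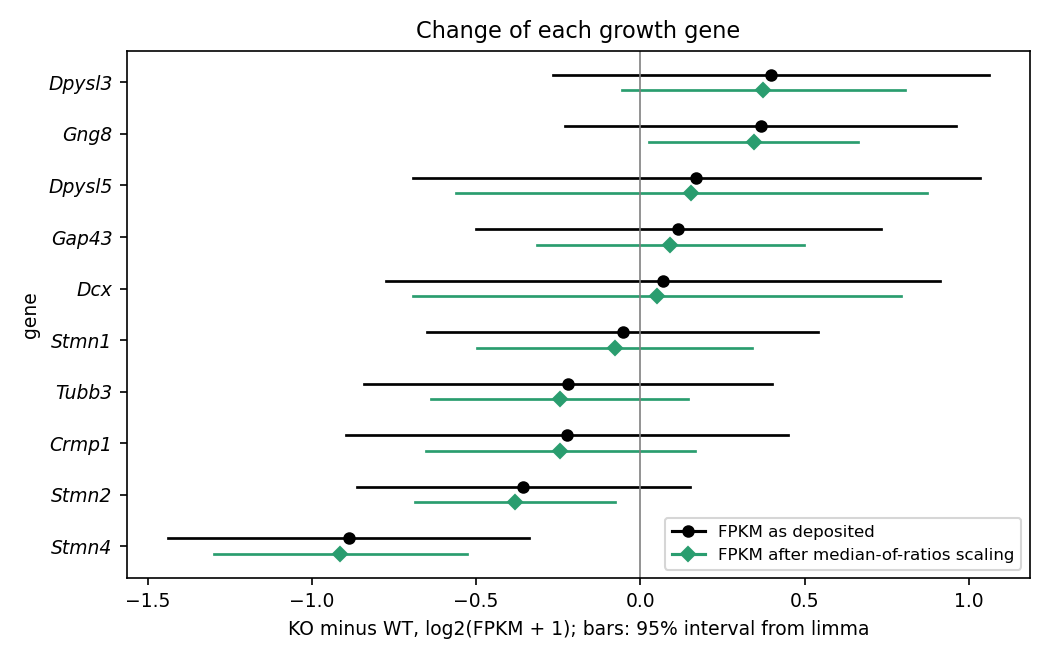
Change of each growth gene, KO minus WT on the log2(FPKM + 1) scale, from limma on values as deposited (black circles) and after median-of-ratios scaling (green diamonds), with 95% intervals as bars. The interval of Stmn4 lies below 0 in both, and scaling narrows the intervals while the estimates hardly move.

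The promoter table of RefSeq (build GRCm38.p6, mouse) held windows for 5 of the 10 genes, Crmp1, Dpysl5, Gng8, Tubb3 and Dcx. Ebf proteins and LIM homeodomain proteins such as Lhx2 are transcription factors of olfactory neurons, and their binding motifs are known from odorant receptor and olfactory neuron promoters. The 250 bases before each start were searched for the Ebf-type motif TCCCNNGGGA and the homeodomain core TAATTA, each of which reads the same on both strands. The first was in 0.779% of all 32851 windows of this length and the second in 4.84%. Among the 5 genes, Dpysl5 held the first, at position -53 from the start, Dcx held the second, at -39 in the first of 2 overlapping windows, and the windows of the other 3 held neither. A match is a description of these letters and not a binding site. The 3 windows printed are those of the 2 genes with a match, which also had the widest WT ranges of the 10, and of Gng8, which had none. Capitals mark the motifs.
Dpysl5, chr5:30711314-30711563, plus strand: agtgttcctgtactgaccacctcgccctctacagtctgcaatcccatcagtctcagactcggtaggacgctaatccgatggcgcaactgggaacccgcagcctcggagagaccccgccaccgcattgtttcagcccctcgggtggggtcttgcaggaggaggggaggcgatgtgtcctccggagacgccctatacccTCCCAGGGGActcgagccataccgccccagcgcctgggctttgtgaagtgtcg
Dcx, chrX:143933220-143933469, minus strand: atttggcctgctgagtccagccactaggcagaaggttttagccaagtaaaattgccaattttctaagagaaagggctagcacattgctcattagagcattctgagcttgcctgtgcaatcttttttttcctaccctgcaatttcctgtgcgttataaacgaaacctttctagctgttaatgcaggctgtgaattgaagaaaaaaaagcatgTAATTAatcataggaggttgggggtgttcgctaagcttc
Gng8, chr7:16891536-16891785, plus strand: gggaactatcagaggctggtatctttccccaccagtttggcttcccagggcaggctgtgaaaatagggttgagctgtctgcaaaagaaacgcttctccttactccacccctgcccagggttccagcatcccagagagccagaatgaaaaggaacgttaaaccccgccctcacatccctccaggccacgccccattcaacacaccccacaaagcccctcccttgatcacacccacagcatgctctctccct

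Across libraries the 10 genes moved together with values as deposited. In WT the mixed pool was the highest and the female pool the lowest for all 10. In KO the male pool was the lowest for all 10, and the female pool the highest for 9, all but Dcx. The highest WT library exceeded the lowest by 1.43 to 4.38 times, with a median of 2.10, and in KO by 1.39 to 2.005 times. The scaling factors of the libraries, given above, had the same order as the levels of the genes within each genotype, except that the KO mixed pool led for Dcx. After scaling the WT ranges were 1.13 to 2.76 times, with a median of 1.48, and the KO ranges 1.08 to 1.78 times. Dpysl5 and Dcx kept the widest WT ranges, at 2.76 and 2.34 times. The shared order of libraries did not hold after scaling. The male library was then the lowest of WT for Gap43, Stmn1, Stmn2 and Stmn4. The mixed library was the lowest of KO for Stmn2, Stmn4 and Tubb3. The share of all genes with the order seen before scaling was not counted.

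The KO level relative to WT therefore depended on which pools were compared. In the mixed pools the 10 genes were at 34.7 to 109% of WT, with a median of 64.7%. Male pools gave 55.5 to 106% (median 85.2%) and female pools 78.3 to 308% (median 179%). All tested genes had medians of 81.4, 84.3 and 151% in the same order of pools. Only Gng8 was above 100% in the mixed pools, only Gap43 and Dpysl3 in the male pools, and all but Stmn4 in the female pools. After scaling the members' medians were 78.03, 101.5 and 118%. Stmn4 was the lowest of the 10 in each kind of pool, at 34.7, 55.5 and 78.3% as deposited and 41.8, 66.2 and 51.7% after scaling. With values as deposited, the product of genotype and female share of the pool was positive for all 10 genes, at 0.48 to 1.62 (log2), but none passed. Its smallest unadjusted p was 0.060, and adjusted p ran from 0.68 to 0.72 in limma, where 0.126% of all genes passed and 4.15% had an unadjusted p under 0.05. The median of all tested genes also rose, from 84.3% in the male to 151% in the female pools. The sign of the product over all genes was not counted. After scaling, the KO level relative to WT was lower in the female than in the male pools for Gap43, Stmn1, Stmn2 and Stmn4. It was higher in the female pools for the other members.

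**Figure D3:**
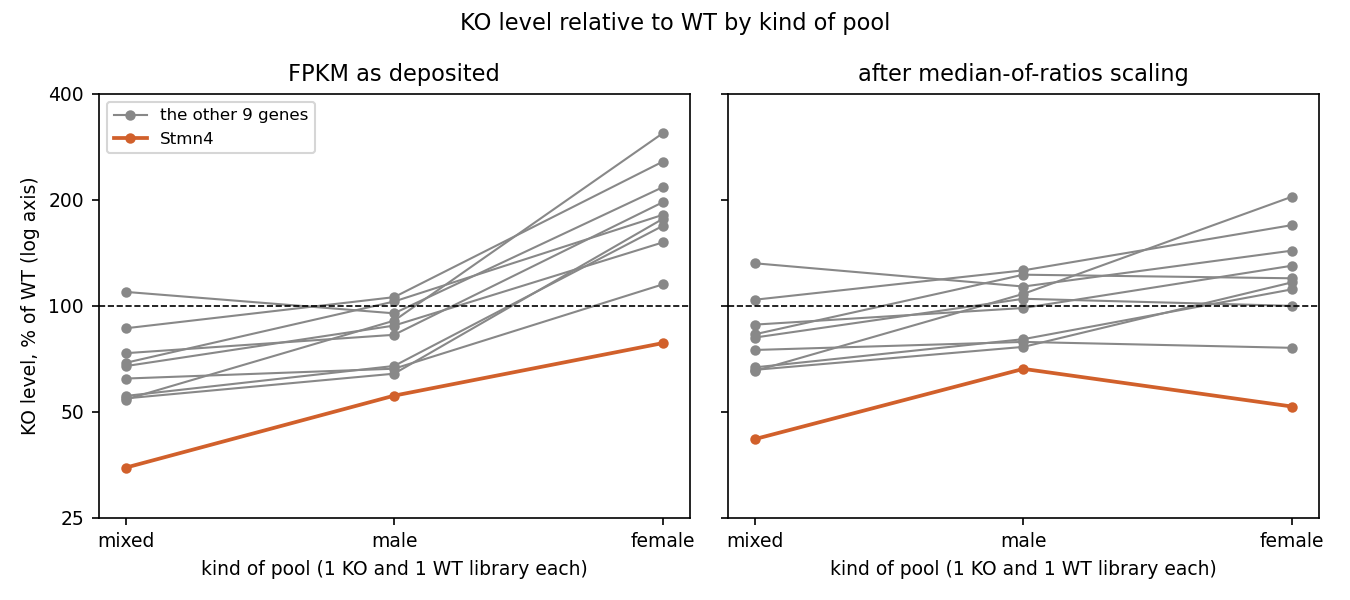
KO level as percent of the WT level in the mixed, male and female pools on a log axis, 1 line a gene, for FPKM as deposited (left) and after median-of-ratios scaling (right). The rise from the male to the female pools, from a median of 85.2 to 179%, shrinks after scaling to 101.5 to 118%, and Stmn4 (orange) stays the lowest.

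The genes of at least 5 FPKM whose levels followed the members' mean profile most closely over the 6 libraries were D1Bwg0212e, Anapc4, Snx32, Adck5, 1110038D17Rik and Klhl17, with Pearson's r from 0.995 to 0.9998 on log2 values. Such likeness was common, since 2258 of 9520 genes, or 23.7%, had an r of at least 0.9. Each library's depth and scaling act on all its genes, so this is a description of the 6 libraries. Among the members themselves, r with the mean profile, which includes the member, was 0.98 for Stmn1 and Crmp1 and 0.55 for Stmn4, the lowest.

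Relative to Omp in the same library, which no scaling of a library alters, the growth genes were mostly higher in KO. Omp is very abundant, and the libraries were normalised with an enzyme that digests the most abundant cDNA, as described below. The effect of that step on these ratios was not tested. The ratio of Gap43 to Omp was 0.0271, 0.0157 and 0.0202 in the mixed, male and female WT pools and 0.0455, 0.0390 and 0.0327 in the KO ones. Every KO value was above every WT value. The mean difference was 0.92 on the log2 scale, or 1.89-fold (two-sided exact permutation p = 0.1, the smallest possible with 3 against 3, and 0.1 when adjusted over the 2 ratios tested). Gng13 encodes the gamma subunit that mature olfactory neurons use for odour transduction. The ratio of Gng8 to Gng13 was 0.0145, 0.0115 and 0.00949 in WT and 0.0357, 0.0230 and 0.0203 in KO, again without overlap. The difference was 1.13 on the log2 scale, or 2.19-fold (exact permutation p = 0.1, the smallest possible).

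The rise relative to Omp was as large for the typical gene as for the typical member. The same comparison over all genes was not made for ratios to Gng13. Relative to Omp, 8 of the 10 members were higher in all KO than in all WT libraries, where 64.7% of all genes were. The members' median change of the ratio was 0.82 on the log2 scale, and that of all genes was 0.82 too. Dcx and Stmn4 were the 2 members whose ratio to Omp overlapped between the genotypes. For Stmn4 it was 0.0270, 0.0170 and 0.0273 in WT and 0.0229, 0.0228 and 0.0191 in KO, with a mean difference of -0.11. Omp itself had a log2 change of -0.80 ± 0.37 (limma, unadjusted p = 0.048, adjusted p = 0.55), and Gng13 one of -0.74 ± 0.32 (adjusted p = 0.49).

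**Figure D4:**
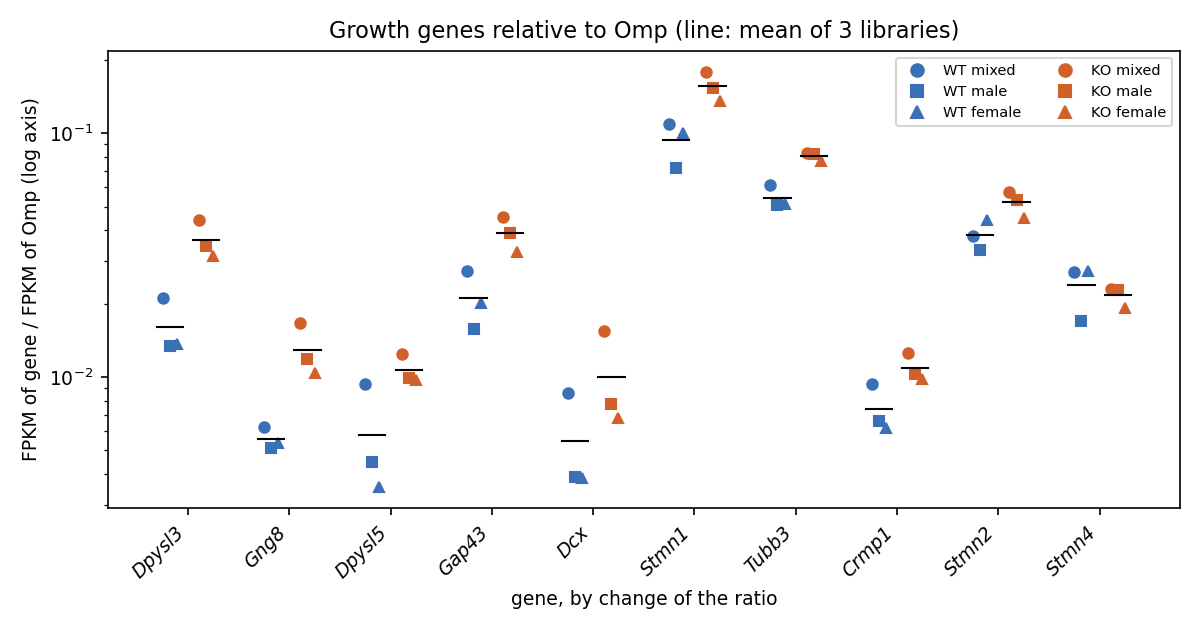
FPKM of each growth gene divided by the FPKM of Omp in the same library, on a log axis, ordered by the change of the ratio, with a line at the mean of 3 libraries. KO lies above WT without overlap for 8 genes, as it does for 64.7% of all genes. Stmn4, at 0.0170 to 0.0273 in WT and 0.0191 to 0.0229 in KO, overlaps.

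Other genes of axon growth were read from lists of related genes. Of 25 tested family relatives (other stathmins, collapsin response mediators, tubulins, gamma subunits and the growth-cone proteins Basp1, Marcks and Marcksl1), none passed and 3 had an unadjusted p under 0.05 in limma. These were Stmn3 and Gng13, described above, and Gngt2, at 2.55 ± 1.27 in WT and 4.64 ± 1.31 in KO. The list's median change was 0.047. Of 33 tested genes of the axonal cytoskeleton none passed and none had an unadjusted p under 0.05, with a median of -0.063. The actin-bundling protein Fscn1 stood at 5.86 ± 1.15 FPKM (WT) and 9.19 ± 2.08 (KO), and Rufy3, a protein of neuronal polarity, at 61.0 ± 22.2 and 39.7 ± 7.18 (SD over 3 libraries). Of 19 other genes of immature olfactory neurons none passed, none was under an unadjusted p of 0.05, and the median was -0.17 with 15 negative. The transcription factor Ebf2 was at 67.1 ± 36.1 in WT and 39.7 ± 11.5 in KO, and the axon guidance receptor Robo2 at 6.92 ± 2.88 and 4.49 ± 1.20.

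Genes of the stages before and after axon growth were read in the same way. Of 10 progenitor genes and 16 proliferation genes none passed or had an unadjusted p under 0.05, with medians of 0.17 and 0.096. All 10 progenitor genes had a positive change. Kit, a receptor of neuronal progenitors, stood at 2.20 ± 0.54 FPKM (WT) and 3.48 ± 0.24 (KO), and Hes6, a transcription factor, at 43.3 ± 6.36 and 53.0 ± 11.4. The mitotic cyclin Ccnb1 was at 2.45 ± 0.52 and 3.83 ± 0.96, and the replication protein Mcm6 at 4.31 ± 1.19 and 5.59 ± 0.65. Of 20 mature neuron genes 19 were negative, and their median change was -0.74. One of them, the adhesion protein Kirrel2, fell (-1.85 ± 0.37, adjusted p = 0.035, and 0.053 after scaling), and 11 had an unadjusted p under 0.05. After scaling 4 others passed as lower, the transduction channel subunits Cnga2 and Cnga4, the receptor transport protein Rtp2 and the glutamate transporter Slc17a6, with adjusted p from 0.021 to 0.042. The members' median of 0.0070, beside 0.013 for all genes tested, lay between those of the progenitor and the mature lists. The medians of the other lists did so too, except that of the vomeronasal list (0.228). The differences between lists were not tested.

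Markers of other cells that can hold growth genes were read beside Stmn4. The mature neuron list summed to 8074 to 12510 FPKM in WT and 4764 to 6949 in KO. The list of olfactory bulb and other central neurons, of which 9 of 12 genes were tested, had 8 negative changes and summed to 51.01 to 80.5 FPKM in WT and 31.7 to 50.01 in KO. No gene of this list was at 0 in all libraries, and most of the sum was Cdhr1, at 21.2 to 58.6 FPKM. Tbr1, Tbx21 and Slc32a1 were below the filter, at 1.135 FPKM or less. Its transcription factor Eomes stood at 4.74 ± 1.75 FPKM (WT) and 2.06 ± 0.62 (KO), and the GABA-synthesising enzyme Gad1 at 2.54 ± 2.12 and 0.67 ± 0.39. The Gad1 level was 4.92 FPKM in the WT female pool and 0.39 to 1.88 in the other 5 libraries. The sums of both lists were lower in each KO than in each WT library, as Stmn4 was. For the central neurons the closest sums were 51.01 FPKM in WT and 50.01 in KO. Single genes of both lists overlapped between the genotypes, Omp and Cdhr1 among them. The part of both lists in the Stmn4 result was not tested.

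Ensheathing and Schwann cells, the glia of the olfactory nerve, can also carry Gap43. Their genes summed to 155 to 192 FPKM in WT and 137 to 165 in KO. Of the 10, 2 had a positive change, Ngfr and Sox10, and 8 a negative one, with a median of -0.18. The receptor Ngfr was at 0.85 ± 0.34 in WT and 2.57 ± 0.29 in KO (adjusted p = 0.099 in limma, and 0.033 after scaling), and the transcription factor Sox10 at 13.6 ± 2.31 and 17.3 ± 0.34. Vomeronasal genes, 4 of 9 tested, summed to 68.8 to 141 FPKM in WT and 101 to 141 in KO, with Gnai2 at 51.5 ± 10.6 and 71.5 ± 11.1 and Meis2 at 3.01 ± 1.18 and 3.63 ± 0.49. Most of that sum was Gnao1, at 24.02 to 80.6 FPKM, and Gnai2, at 39.8 to 84.25 FPKM. The receptors Vmn2r1, Vmn2r26 and Vmn1r51 were below the filter, at 0.16 FPKM or less. Sustentacular genes, of the supporting cells, summed to 9323 to 12830 in WT and 8228 to 13930 in KO. Among them Aldh1a7 was at 69.7 ± 13.5 and 42.4 ± 13.8, and Cyp2g1, an olfactory cytochrome, at 2560 ± 522 and 1926 ± 858 FPKM. The sustentacular list had 4 positive and 6 negative changes, with a median of -0.115. None of the genes in these 3 lists passed with values as deposited.

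Coverage differed between the members. By their estimated fragments, Gng8 was the least covered, at about 59 fragments in the WT mixed and 73 in the KO mixed library, and Stmn4 stood at about 387 and 150 in the same libraries. In the male and female libraries Stmn4 had about 495 to 978 fragments. These counts use the longest transcript of each gene in build GRCm38 and are approximate.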

How the data were processed

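RNA of adult olfactory epithelium was sequenced in 3 WT and 3 KO libraries of pooled animals. Per the labels' protocols, a column kit with DNase was used, and libraries were normalised with duplex-specific nuclease, an enzyme that digests the most abundant cDNA, so that differences of very abundant transcripts are compressed. The authors deposited 1 FPKM value per gene and library. No unit stands in the table. It was inferred from the header, the values and the programs, which per the submitters' processing notes included Bowtie and TopHat2 2.0.7, Cuffdiff and Cufflinks 1.3.3, and build mm9. Settings were not given in the sources used here. A column of each genotype names no sex and was taken as the mixed pool, since the other columns carry full sample titles.

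The table has 22310 rows. Where a symbol was repeated, only its row of highest mean was used, and 429 rows were dropped. The filter of 0.5 FPKM on the mean left 15067 genes. Genotypes were compared on log2(FPKM + 1) with limma 3.58.1 (R 4.3.3), letting the prior variance depend on the mean, with Benjamini-Hochberg adjustment and 0.05 as the threshold. Changes on this scale understate those of low genes. The fit was tested on simulated data. For ratios of 2 genes, an exact permutation test (two-sided) was used. The genotype-by-sex term used the female share of each pool. Each genotype had a single male and a single female pool, so this term cannot tell sex from a difference between single libraries. For depth, the value of 1 fragment was read from low genes with a single GRCm38 transcript (1200 nt or longer, less 150 nt for ends).

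The members and lists were chosen with earlier results of these data known. Beyond the members, the text names list genes past the threshold, otherwise the 2 of smallest p per list (mean of 1 FPKM or more), and the 6 genes most like the members' profile. Ratios of stathmins and Gngt2 were picked after their values were seen. Alternatives changed the scaling, the filter, the pseudocount, the block, the prior variance and the libraries used. Scaling combined with left-out libraries or with the block was added after seeing the data.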

Additional observations from a re-analysis of the deposited data

How the results depend on the processing

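Stmn4 kept its negative change under all 21 alternatives, from -1.07 to -0.59, and passed the threshold in 4. These were median-of-ratios scaling, upper quartile scaling (-0.89, adjusted p = 0.042), median-of-ratios scaling with the kind of pool as a block (adjusted p = 0.048), and the values without the WT female library. Without both mixed pools it was -0.59 (adjusted p = 0.87). Gng8 and Dpysl3 stayed positive and Stmn2 negative under all 21 alternatives, none of which brought them past the threshold. The sign of the other 6 genes depended on the libraries. With each library left out, the change ran from -0.13 to 0.44 for Gap43, from -0.32 to 0.67 for Dpysl5, from -0.55 to 0.069 for Crmp1, from -0.23 to 0.19 for Stmn1 and from -0.33 to 0.54 for Dcx. Without both mixed pools Crmp1 was at 0.082, Stmn1 at 0.20 and Tubb3 at 0.091, and with scaling Stmn1 was at 0.031. With scaling and each library left out, the change ran from -0.035 to 0.27 for Gap43, from -0.16 to 0.52 for Dpysl5, from -0.19 to 0.024 for Stmn1 and from -0.18 to 0.40 for Dcx (-0.068 and -0.17 without the male and the female WT library). None of these 6 genes passed anywhere, and the cause of the changed signs was not tested.

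The count of all genes called, 126 (32 higher, 94 lower), was 30 without the filter, 267 with median-of-ratios scaling (81 higher, 186 lower), 276 with upper quartile scaling (92 higher, 184 lower) and 348 without both mixed pools (150 higher, 198 lower). With each library left out it ran from 40 to 542, and with scaling too from 33 to 211 (61 without the WT male, 70 without the KO male library). It was 433, 81 and 542 without the mixed, male and female WT library and 44, 105 and 40 without their KO counterparts. The kind of pool as a replicate block gave 440, and 327 with scaling. Deviations of same-kind pools correlated at 0.36 (mixed), 0.21 (male) and -0.092 (female). Same-kind pools thus deviated together in part for the mixed and male pools, and not for the female ones. The genotype-by-sex calls, 19 with values as deposited, were 12 at a pseudocount of 0.1 and 0 with scaling, where 145 genes had an unadjusted p under 0.05. The ratio of Gap43 to Omp ran from 0.73 to 1.12 and that of Gng8 to Gng13 from 0.89 to 1.3 with each library left out, both positive throughout. With the replicate block their changes were 0.92 and 1.13 (exact p = 0.25, the smallest 3 pairs allow). The shallower mixed pools held about 59 and 73 fragments of Gng8, the fewest of the 10 genes.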
